A study of Mus musculus with 13 samples.

Results

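The nuclear genes of mitochondrial complex I and of its assembly factors were followed in gastrocnemius muscle, a calf muscle of mostly fast fibres. The members were all genes of the table whose symbol starts with Nduf, pseudogenes left out, which gave 46 of 21868 genes. Of these, 38 were subunit symbols and 8 were Ndufaf assembly factors. RNA-seq was performed on 13 obese male C57BL/6 mice. The study's figure legends name the N substrain for the RNA-seq data. The mice entered the study at 7 weeks of age, had 1 week to acclimatize and were fed a high-fat diet with 60% of kilocalories from fat for 15 to 17 weeks, after which all of them were returned to standard chow and treated for 3 weeks. Vehicle-treated mice (n = 5, mice 1 to 5) received phosphate-buffered saline and placebo. Semaglutide-treated mice (n = 5, mice 13 to 17) received semaglutide, a GLP-1 receptor agonist, at 30 nM/kg/day by intraperitoneal injection with placebo. Semaglutide + ketone ester-treated mice (n = 3, mice 19, 21 and 22) received the same dose of semaglutide together with a ketone ester at 0.114 g/mL in drinking water, and are called the ketone ester group. No lean or chow-only group and no group given the ketone ester alone was among the samples, so that all comparisons are between formerly high-fat-fed mice.

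Complex I (NADH:ubiquinone oxidoreductase) is the entry point of electrons from NADH into the respiratory chain and pumps protons across the inner mitochondrial membrane. Its N module oxidizes NADH, its Q module passes the electrons to ubiquinone, and the proximal and distal parts of the membrane arm carry the proton pumps. Core subunits, conserved from bacteria, do the catalysis, accessory subunits surround them, and assembly factors build the enzyme without staying in it. Several core subunits of the membrane arm are encoded by mitochondrial DNA, while every Nduf gene is nuclear. Skeletal muscle is rich in the enzyme, more so in oxidative than in glycolytic fibres.

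Values are the deposited normalized counts, and differences are on the log2(normalized count + 1) scale with their standard error (SE). A gene was called changed at an adjusted p under 0.05 in limma, adjusted over the 12303 genes tested. Reads counted on genes numbered 15319471 to 23498162 a mouse, and no member had fewer than 34 reads in any mouse. The first principal component of all genes tested held 38.1% of the variance. On it, semaglutide mouse 13 scored -9.12 whereas the other semaglutide-treated mice scored 31.8 to 52.5, vehicle-treated mice -24.5 to -12.85 and the ketone ester group -25.6 to -15.8. Mouse 13 thus stood apart from its own group, and results that depend on it are given below with and without it. The 6 skeletal muscle markers summed to at least 1325577 normalized counts in every mouse, and none of the marker genes examined for skeletal muscle, adipocytes, endothelium, macrophages, fibroblasts and tendon, or erythroid cells was at 0 in every mouse.

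Subunit transcripts were lower under semaglutide than under vehicle across nearly the whole complex. Of the assembly factors, 2 were lower and 6 did not pass the test. Of the 38 subunit symbols, 32 (6 exceptions are described below) were called lower and 0 higher, where 13.2% of all genes tested were called lower and 11.9% higher. Of the 8 assembly factors, Ndufaf1 and Ndufaf5 were called lower and 0 were called higher. The median log2 difference was -0.45 over the subunits and -0.45 over the assembly factors, beside -0.0029 over all genes tested, so the lists differed in how many members were called and not in their medians. In every semaglutide-treated mouse the count lay below that of every vehicle-treated mouse for 27 of 38 subunits and 1 of 8 assembly factors, as it did for 7.45% of all genes tested. Rescaling the columns to equal totals moved the median of all genes to 0.17 in this comparison and to -0.24 between semaglutide + ketone ester and semaglutide. In the first of these, 19 subunits were then called lower and 1 higher, beside 929 of all genes lower and 3262 higher. Ndufaf1 and Ndufaf5 were still called lower, and 1 assembly factor was called higher. In the second, 21 subunits were called higher and 1 lower, beside 611 of all genes higher and 3587 lower. Ndufaf1 and Ndufaf5 were still called higher there, and 1 assembly factor was called lower. In bulk muscle RNA, fewer cells of a type and less RNA per cell cannot be told apart.

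With ketone ester co-administration, 33 of the 38 subunits were higher than in semaglutide-treated mice and 0 were lower, where 9.09% of all genes tested were called higher and 9.3% lower. Among the assembly factors it was again Ndufaf1 and Ndufaf5 that were called, both higher. The medians were 0.54 for subunits and 0.55 for assembly factors, beside -0.00024 for all genes. In all 3 mice of the ketone ester group the count exceeded that of all 5 semaglutide-treated mice for 31 subunits and 2 assembly factors, as it did for 9.96% of all genes tested. Mouse 22 was the highest of all 13 mice in 33 of the 38 subunits. Without it, which leaves 2 mice in the group, the subunit median was 0.44. In that fit 33 subunits had an unadjusted p under 0.05, beside 3288 of the 12303 genes tested. After adjustment 14 subunits and 1 assembly factor were called higher, while the number of all genes called higher went from 1118 to 439. The same semaglutide samples enter both comparisons, and opposite signs between them are therefore not independent.

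**Figure D1:**
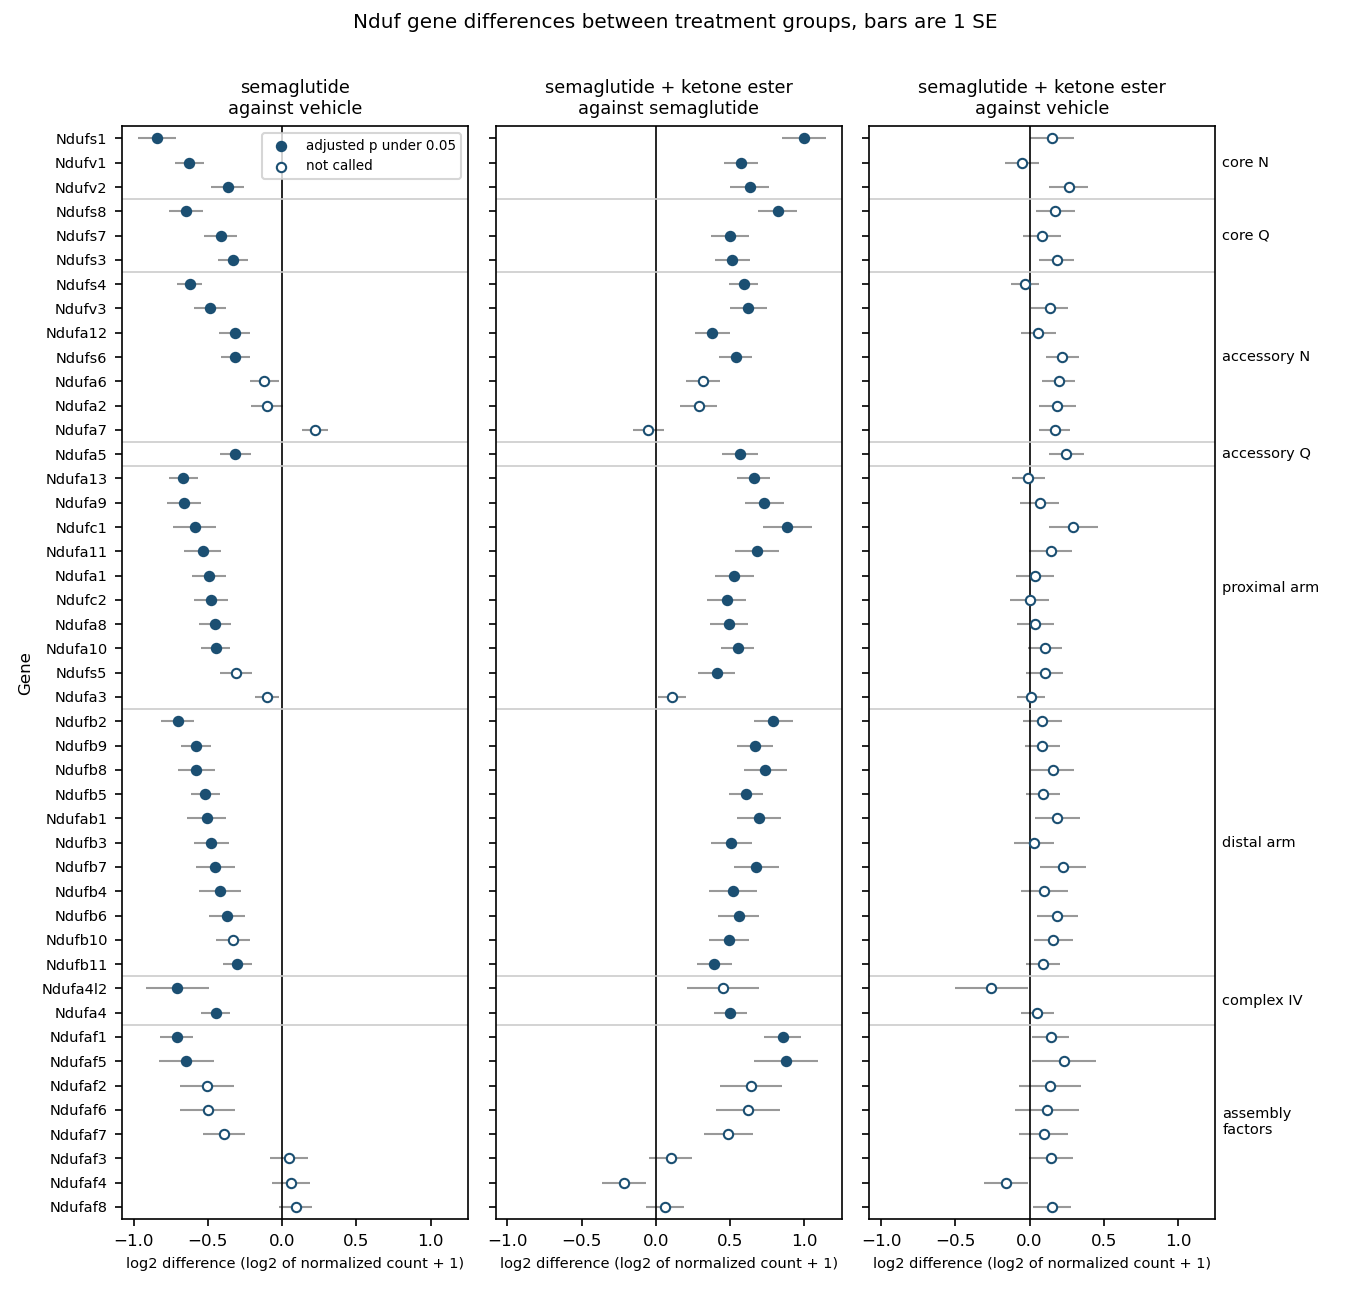
Log2 difference of 45 of the 46 Nduf genes in the 3 comparisons, on the log2(normalized count + 1) scale, with bars of 1 SE. Filled points passed the limma threshold and open points did not. Genes are grouped by their place in the complex. Nearly all subunits lie left of 0 in the first panel and right of 0 in the second, 3 assembly factors lie near 0 in the first panel, and no point is filled in the third.

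No member was called between the ketone ester group and vehicle-treated mice, where 0.0732% of all genes tested were called higher and 0.163% lower. None of the 46 had an unadjusted p under 0.05 in limma, where 1289 of the 12303 genes tested had one. In edgeR 3 had one, beside 1292 of all genes, in DESeq2 3, beside 1262, and in limma with sample weights 6, beside 2103. None of these fits called any of the 46 after adjustment. The subunit estimates ran from -0.26 (Ndufa4l2) to 0.30 (Ndufc1) with a median of 0.10, 34 of 38 being above 0, and those of the assembly factors from -0.16 (Ndufaf4) to 0.23 (Ndufaf5) with a median of 0.14. For Ndufc1, an accessory subunit of the membrane arm, the difference of 0.30 had an SE of 0.17, so that a difference of that size was not separable from the spread between mice.

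Per mouse, the mean log2 difference from the vehicle mean over the 38 subunits was -0.23 in mouse 13, -0.32 in mouse 14, -0.42 in mouse 15, -0.70 in mouse 16 and -0.54 in mouse 17, against -0.09 to 0.05 in vehicle-treated mice. No semaglutide-treated mouse overlapped with a vehicle-treated mouse. Over the 8 assembly factors the same mice had 0.05, -0.19, -0.33, -0.67 and -0.46, against -0.04 to 0.05 in vehicle-treated mice, and mouse 13 lay within the vehicle range. The means were -0.44 ± 0.18 (SD, n = 5) for subunits and -0.32 ± 0.27 (SD, n = 5) for assembly factors under semaglutide, and 0.11 ± 0.18 (SD, n = 3) and 0.11 ± 0.08 (SD, n = 3) under semaglutide + ketone ester. By normalized count, mouse 16 was the lowest of all 13 mice in 33 of 38 subunits and in 5 of 8 assembly factors. As a share of reads, the subunits took 0.445% in mouse 16, 0.442% in mouse 15 and 0.421% in mouse 17. Assembly factors took 0.0115%, 0.0117% and 0.0110% in the same order, so the rank of mouse 16 over the lists depends on the scaling. Without mouse 13, 34 subunits and 5 assembly factors were called lower under semaglutide, and 35 and 5 were called higher with the ketone ester, while the number of all genes called went from 1625 to 2320 lower and from 1118 to 1963 higher in these comparisons. Without mouse 17, 21 subunits, 1 assembly factor and 1120 of all genes were called lower.

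**Figure D2:**
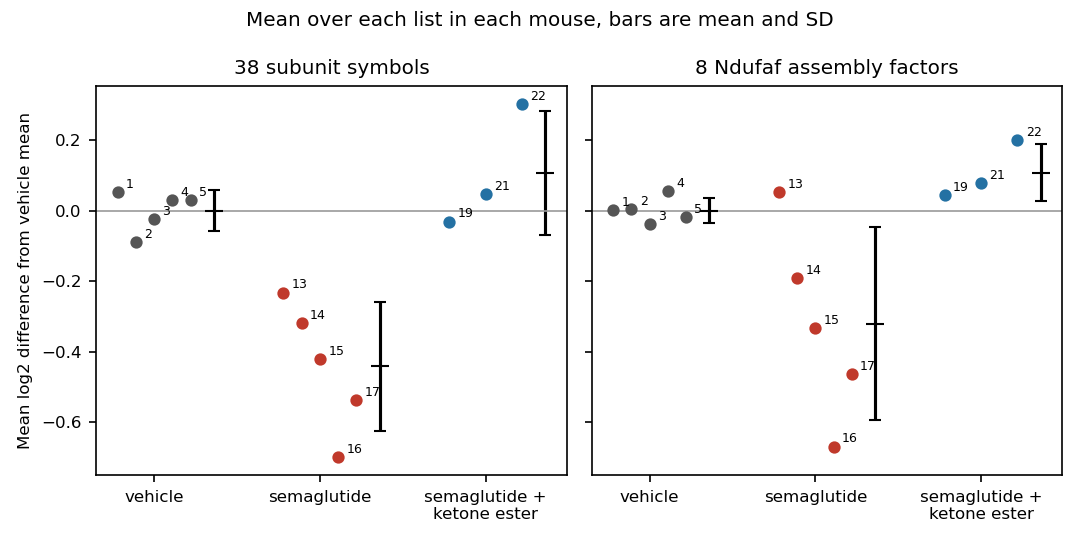
Mean log2 difference from the vehicle mean over the 38 subunit symbols and over the 8 Ndufaf assembly factors, 1 point for each mouse labelled with its number, with group mean and SD as bars. For subunits all 5 semaglutide-treated mice lie below all vehicle-treated mice, whereas for assembly factors mouse 13 lies at 0.05 among them and mouse 22 is the highest in both panels.

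As a share of all reads counted on genes, the subunit symbols took 0.554% ± 0.030 (SD, n = 5) in vehicle-treated, 0.457% ± 0.030 (SD, n = 5) in semaglutide-treated and 0.572% ± 0.065 (SD, n = 3) in the ketone ester group. Assembly factors took 0.0137% ± 0.00058, 0.0127% ± 0.0019 and 0.0138% ± 0.00060 in the same order and with the same n. Levels were divided by the length of all annotated exons of a gene together, which was 6883 bases for Ndufab1 and 419 for Ndufa1. That length can exceed the length of the transcripts present, so levels per kilobase are approximate. The level of the median subunit in vehicle-treated mice was 1496 normalized counts per kilobase of exon and that of the median assembly factor 193. Subunits ranged from 92.5 (Ndufa4l2) to 4908 (Ndufb9) per kilobase and assembly factors from 34.8 (Ndufaf2) to 384 (Ndufaf1), so that most subunits were more abundant per length than every assembly factor. Under semaglutide the medians were 1089 and 154, and with the ketone ester 1624 and 202 per kilobase.

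The promoters of 40 of the 46 members (33 subunits and 7 assembly factors) were found in RefSeq's table for build GRCm38.p6, each with 250 bases before and 50 after the transcription start. The 250 bases before the start are shown, 5′ to 3′ on the gene's strand, for 2 members that were lower in semaglutide-treated mice, the subunit Ndufb2 and the assembly factor Ndufaf1, and for 2 that were not called, the subunit Ndufa3 and the assembly factor Ndufaf4. Capitals mark matches to any of 5 searched motifs.
Ndufb2, chr6:39592315-39592564, plus strand: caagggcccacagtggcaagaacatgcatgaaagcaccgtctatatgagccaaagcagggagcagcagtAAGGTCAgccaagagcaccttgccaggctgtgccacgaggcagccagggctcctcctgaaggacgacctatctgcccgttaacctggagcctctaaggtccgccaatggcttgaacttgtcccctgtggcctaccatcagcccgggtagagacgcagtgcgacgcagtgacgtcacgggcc
Ndufaf1, chr2:119662835-119663084, minus strand: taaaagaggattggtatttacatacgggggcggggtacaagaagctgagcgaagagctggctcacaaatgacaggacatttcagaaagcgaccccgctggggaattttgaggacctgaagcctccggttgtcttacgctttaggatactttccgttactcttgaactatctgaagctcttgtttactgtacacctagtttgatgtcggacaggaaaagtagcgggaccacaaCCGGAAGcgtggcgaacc
Ndufa3, chr7:3617123-3617372, plus strand: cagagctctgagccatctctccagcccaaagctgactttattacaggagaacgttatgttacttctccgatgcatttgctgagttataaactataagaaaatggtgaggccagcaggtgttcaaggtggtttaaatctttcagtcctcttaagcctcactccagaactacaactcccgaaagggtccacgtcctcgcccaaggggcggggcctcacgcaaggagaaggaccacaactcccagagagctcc
Ndufaf4, chr4:24897833-24898082, plus strand: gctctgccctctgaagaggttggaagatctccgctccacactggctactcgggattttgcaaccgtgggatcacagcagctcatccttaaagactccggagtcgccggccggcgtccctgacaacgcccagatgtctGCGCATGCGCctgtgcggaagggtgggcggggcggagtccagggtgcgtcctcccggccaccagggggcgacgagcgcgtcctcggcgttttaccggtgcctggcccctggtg
The capitals are an estrogen-related receptor half-site in Ndufb2, an ETS core in Ndufaf1 and an NRF1 core, matched on both strands at overlapping positions, in Ndufaf4, while Ndufa3 held none of them before its start.

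The motifs were searched on both strands of the whole window, with letters chosen with matches in view. Members were counted once per gene, and all promoters of the table per entry. The NRF1 core GCGCATGC was in 3 of 33 subunit promoters (9.09%) and 2 of 7 assembly factor promoters (28.6%), beside 2.71% of the 32851 promoters of the table. The estrogen-related receptor half-site AAGGTCA was in 3 of 33 and 0 of 7 (4.72% of all), the ETS core CCGGAAG in 4 of 33 and 2 of 7 (8.86% of all), and the E-box CACGTG, which reads the same on both strands, in 2 of 33 and 0 of 7 (7.15% of all). The YY1 core AAGATGGC was in 7 of 33 subunit promoters (21.2%) and in that of Ndufaf8, and in 2.75% of all promoters. It lay on the gene's strand and 11 to 39 bases after the start in all 8, and the 20 bases around it are shown for each with the core in capitals.
Ndufa3, chr7:3617387-3617406, plus strand: ccaagaacAAGATGGCcggg
Ndufa9, chr6:126849104-126849123, minus strand: tgtgggagAAGATGGCggcc
Ndufb8, chr19:44555393-44555412, minus strand: agaaggtgAAGATGGCtgcc
Ndufc1, chr3:51408922-51408941, minus strand: tgcggaacAAGATGGCgccg
Ndufs4, chr13:114388048-114388067, minus strand: cctacaggAAGATGGCggcg
Ndufs6, chr13:73328438-73328457, minus strand: tcaccggcAAGATGGCggcg
Ndufs7, chr10:80249465-80249484, plus strand: ccgaggccAAGATGGCggcg
Ndufaf8, chr11:120098936-120098955, plus strand: cagggcccAAGATGGCggcg
Of these 8 genes, 6 were called lower under semaglutide and 2, Ndufa3 and Ndufaf8, were not. Among all members, with or without the core, 32 of 38 subunits and 2 of 8 assembly factors were called lower. Within 17 of the 40 members none of the 5 motifs was found. A match is a run of letters in this window and says nothing of binding in these muscles.

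The core subunits of the N module, which take electrons from NADH, were lower under semaglutide in all 3 cases and higher with the ketone ester in all 3. Counts are given in the order of mouse number. Ndufs1 (chromosome 1, 63143596 to 63176833, minus strand), the largest subunit and a carrier of several iron-sulfur clusters, had 6777, 6149, 5903, 7133 and 6883 in vehicle-treated mice, 4365, 3596, 3898, 3088 and 3413 in semaglutide-treated mice and 5742, 7505 and 8960.1 in the ketone ester group. It was the subunit with the largest difference, every semaglutide-treated mouse lying below every mouse of the other groups. Its mean fell from 6569 ± 519 (SD, n = 5) to 3672 ± 486 (SD, n = 5), a log2 difference of -0.85 ± 0.13 (SE, limma adjusted p = 0.0010), and was 7402 ± 1611 (SD, n = 3) with the ketone ester, a log2 difference of 1.00 ± 0.15 (SE, limma adjusted p = 0.0021) from semaglutide. Both calls held in 25 of 25 alternative settings. Ndufv1, which binds NADH and the flavin cofactor, had 6326, 5221, 5275, 5996 and 6314 in vehicle-treated mice, 3791, 4206, 3827, 3360.0 and 3686 in semaglutide-treated mice and 5247, 5084 and 6564 in the ketone ester group. No semaglutide-treated mouse reached the lowest mouse of either other group, and the log2 differences were -0.63 ± 0.10 (SE, limma adjusted p = 0.0014) and 0.57 ± 0.11 (SE, limma adjusted p = 0.0068). Ndufv2, an iron-sulfur protein of the same module, had 5538, 5071, 5139, 5083 and 5036 in vehicle-treated mice, 4741, 4368, 4160.0, 3161 and 3783 in semaglutide-treated mice and 5374, 6139 and 7251 in the ketone ester group. Semaglutide-treated mice were again below all others, while the other groups overlapped, but the drop was smaller, -0.37 ± 0.11 (SE, limma adjusted p = 0.034), and passed the threshold in 15 of 25 alternative settings, while the rise with the ketone ester was 0.63 ± 0.13 (SE, limma adjusted p = 0.0080).

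The core subunits of the Q module described here were likewise called in both comparisons. Ndufs8, an iron-sulfur protein next to the quinone site, had 1517, 1370.0, 1286, 1617 and 1526 in vehicle-treated mice, 1116, 898, 951, 831 and 885 in semaglutide-treated mice and 1410.1, 1588 and 1985 in the ketone ester group. Semaglutide-treated mice were all below the other groups, with a log2 difference from vehicle of -0.65 ± 0.11 (SE, limma adjusted p = 0.0022) and, with the ketone ester, of 0.82 ± 0.13 (SE, limma adjusted p = 0.0026) from semaglutide. Ndufs7, which holds the last iron-sulfur cluster before ubiquinone, had 3468, 3143, 3356, 3305 and 3485 in vehicle-treated mice, 3112, 2710.3, 2534, 2121 and 2215 in semaglutide-treated mice and 3334, 3229 and 4165 in the ketone ester group. Mouse 13 came close to the lowest vehicle-treated mouse without reaching it, and the difference was -0.41 ± 0.11 (SE, limma adjusted p = 0.020). Ndufs3, a scaffold of this module, had 2727, 2545, 2492, 2555 and 2671 in vehicle-treated mice, 2508, 2079, 2093, 1679 and 2038 in semaglutide-treated mice and 2662, 2930.4 and 3284 in the ketone ester group. Here mouse 13 overlapped with vehicle-treated mice, and the difference of -0.33 ± 0.10 (SE, limma adjusted p = 0.033) passed the threshold in 14 of 25 alternative settings. Against semaglutide, the log2 differences of the ketone ester group were 0.50 (limma adjusted p = 0.021) for Ndufs7 and 0.52 (limma adjusted p = 0.012) for Ndufs3. Both of these calls, and that of Ndufv2, were lost without mouse 22, with estimates of 0.38 for Ndufs7, 0.44 for Ndufs3 and 0.52 for Ndufv2. Ndufa5, the accessory subunit of this module, was called lower under semaglutide (-0.32, limma adjusted p = 0.044) and higher with the ketone ester (0.56, limma adjusted p = 0.0090).

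The accessory subunits of the N module were mixed. Of 7, 4 were called lower under semaglutide, namely Ndufs4 (-0.62), Ndufv3 (-0.49), Ndufa12 (-0.32) and Ndufs6 (-0.32), and the same 4 were called higher with the ketone ester. Ndufs4, lost in a well-known mouse model of mitochondrial disease, had the lowest adjusted p of all members in the first comparison, 0.00053 in limma. The other 3, Ndufa2, Ndufa6 and Ndufa7, were not called in either direction. Ndufa7 (chromosome 17, 33824572 to 33838317, plus strand) had 1759.9, 1638, 1741, 1632 and 1701 in vehicle-treated mice, 1979.7, 2211, 2002, 1649.9 and 2074 in semaglutide-treated mice and 1884, 1714 and 2138 in the ketone ester group. It was the only subunit with an estimate above 0 under semaglutide, 0.22 ± 0.09 (SE, limma adjusted p = 0.093), 4 of the 5 semaglutide-treated mice being above all vehicle-treated mice and mouse 16 among them. It was called higher in 5 of 25 alternative settings, edgeR (adjusted p = 0.047) and the scaling to equal totals (log2 difference 0.39, limma adjusted p = 0.0029) among them. Between semaglutide + ketone ester and semaglutide it differed by -0.05 ± 0.10 (SE, limma adjusted p = 0.76). Ndufa6, of the family of LYR-motif proteins, had 2733, 2561, 2419, 2493 and 2686 in vehicle-treated mice, 2609, 2625, 2438, 1918 and 2325 in semaglutide-treated mice and 2795, 2758 and 3331 in the ketone ester group. Of the semaglutide-treated mice, 2 lay below the vehicle range and 3 within it, and the differences were -0.12 (limma adjusted p = 0.39) from vehicle and 0.32 (limma adjusted p = 0.069) with the ketone ester. Ndufa2, a small thioredoxin-fold protein, had 1811, 1647, 1885, 1659.9 and 1837 in vehicle-treated mice, 1992, 1872, 1595, 1398 and 1455 in semaglutide-treated mice and 2059.9, 1801 and 2189.6 in the ketone ester group. Its semaglutide-treated mice spread on both sides of the vehicle range, with differences of -0.10 (limma adjusted p = 0.53) and 0.29 (limma adjusted p = 0.13). The estimates of Ndufa2, Ndufa3 and Ndufa6 against vehicle were below 0, but turned to between 0.05 and 0.07 with columns rescaled to equal totals.

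**Figure D3:**
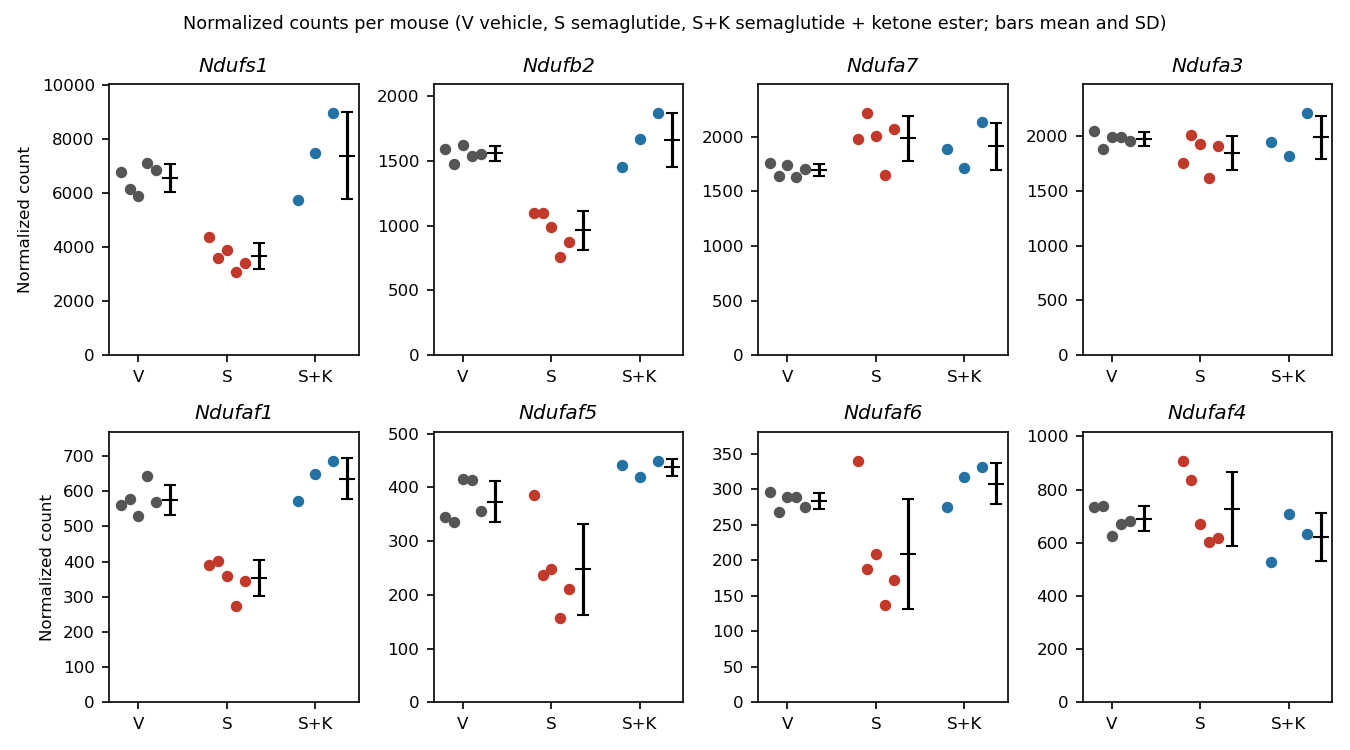
Normalized counts per mouse for 4 subunits (top row) and 4 assembly factors (bottom row) by group (V for vehicle, S for semaglutide, S+K for the ketone ester group), axes from 0, with group mean and SD as bars. Ndufs1, Ndufb2 and Ndufaf1 show semaglutide-treated mice apart from both other groups. Ndufa7, Ndufa3 and Ndufaf4 overlap, and in Ndufaf5 and Ndufaf6 the semaglutide-treated mouse that lies among the vehicle-treated mice or above them is mouse 13.

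In the membrane arm, 8 of 10 proximal and 10 of 11 distal accessory subunits were lower under semaglutide, and 9 of 10 and 11 of 11 were higher with the ketone ester. Medians were -0.48 in both under semaglutide, and 0.54 and 0.61 with the ketone ester. Ndufb2 (chromosome 6, 39592574 to 39603382, plus strand), a distal subunit, had the largest difference among complex I accessory subunits, with 1592, 1478, 1625, 1533 and 1556 in vehicle-treated mice, 1096, 1101, 989.7, 756 and 876 in semaglutide-treated mice and 1451, 1666 and 1865 in the ketone ester group. Semaglutide-treated mice lay below all mice of both other groups, which overlapped with each other, and its log2 differences were -0.71 ± 0.11 (SE, limma adjusted p = 0.0014) and 0.79 ± 0.13 (SE, limma adjusted p = 0.0028), each called in 25 of 25 alternative settings. Of its exon bases 2.58% are shared with another gene on the same strand, as are 4.26% of those of Ndufb8 and 19.5% of those of Ndufb9. Ndufa13 (-0.67), also known as GRIM-19, and Ndufa9 (-0.66), at the junction of both arms, led the proximal part, and Ndufc1 had its largest rise with the ketone ester (0.89). Ndufab1, the mitochondrial acyl carrier protein, which also serves fatty acid synthesis, differed by -0.51 (limma adjusted p = 0.015). Ndufa3, a small membrane subunit and the only one of these 21 not called in either comparison, had 2047, 1885, 1998, 1997 and 1955 in vehicle-treated mice, 1754, 2016, 1929, 1624 and 1913 in semaglutide-treated mice and 1946, 1823 and 2210.0 in the ketone ester group. Of the semaglutide-treated mice, 2 lay below the vehicle range and 3 within it, with differences of -0.10 (limma adjusted p = 0.39) and 0.11 (limma adjusted p = 0.44). Ndufb10 (-0.33, limma adjusted p = 0.052) and Ndufs5 (-0.31, limma adjusted p = 0.054), subunits with cysteine motifs formed in the intermembrane space, missed the threshold narrowly under semaglutide and were called higher with the ketone ester. The remaining members of these groups lay between -0.59 (Ndufc1) and -0.30 (Ndufb11) under semaglutide, all called lower.

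Ndufa4 and Ndufa4l2 carry the name of complex I subunits, but their products are now placed with complex IV. Ndufa4 had 6274, 5792, 5842, 6009 and 5975 in vehicle-treated mice, 4659.5, 4815, 4677, 3515 and 4364 in semaglutide-treated mice and 5946, 5709.9 and 7013 in the ketone ester group. Semaglutide-treated mice were all below the other groups, with log2 differences of -0.45 ± 0.10 (SE, limma adjusted p = 0.0067) and 0.50 ± 0.11 (SE, limma adjusted p = 0.011). The second call was lost without mouse 22 (0.41, limma adjusted p = 0.064) and in the fit on only the 2 groups compared. Ndufa4l2, a hypoxia-inducible relative, was the least abundant subunit symbol per kilobase, with 138, 91.5, 96.5, 84.3 and 95.5 in vehicle-treated mice, 88.0, 82.3, 37.8, 52.4 and 57.4 in semaglutide-treated mice and 81.4, 80.9 and 87.7 in the ketone ester group. It was called lower under semaglutide, -0.71 ± 0.21 (SE, limma adjusted p = 0.029), but vehicle mouse 1 stood well above the other vehicle-treated mice, and without it the difference was -0.59 (limma adjusted p = 0.067). The call held in 17 of 24 alternative settings and was also lost without vehicle mouse 3, without semaglutide mouse 15, 16 or 17, in the fit on only the 2 groups compared and with columns rescaled to equal totals. The ketone ester group differed by 0.45 (limma adjusted p = 0.21) from semaglutide. Leaving both genes out, 30 of 36 subunits were called lower and 32 higher in these comparisons.

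The assembly factors fell into a set of 5 with estimates from -0.71 to -0.39 under semaglutide and a set of 3 with estimates from 0.05 to 0.09. Ndufaf1 (chromosome 2, 119655446 to 119662827, minus strand), a member of the assembly complex of the membrane arm, had 559.6, 578, 528, 644 and 569 in vehicle-treated mice, 391, 401, 359, 273 and 345 in semaglutide-treated mice and 572, 649 and 686 in the ketone ester group. It was the one assembly factor without overlap between semaglutide-treated mice and either other group, with log2 differences of -0.71 ± 0.11 (SE, limma adjusted p = 0.0011) and 0.85 ± 0.13 (SE, limma adjusted p = 0.0021), and both calls held in 25 of 25 alternative settings. Ndufaf5, which hydroxylates an arginine of the Ndufs7 protein, had 346, 336, 416, 414 and 355 in vehicle-treated mice, 386, 237, 249, 157 and 210.3 in semaglutide-treated mice and 442, 419 and 449 in the ketone ester group. The mouse at 386 was mouse 13, within the vehicle range, and the other 4 were far below it. The log2 differences were -0.64 ± 0.18 (SE, limma adjusted p = 0.025) and 0.88 ± 0.21 (SE, limma adjusted p = 0.016), and without mouse 13 they were -0.82 (limma adjusted p = 0.00070) and 1.05 (limma adjusted p = 0.00048). The first call was lost without vehicle mouse 3, vehicle mouse 4 or semaglutide mouse 17, with limma adjusted p-values of up to 0.061, and the second without mouse 22 (0.86, limma adjusted p = 0.065), without mouse 21 and in the fit on only the 2 groups compared, so that each held in 22 of 25 alternative settings.

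Ndufaf6, needed for an early intermediate of the membrane arm, had 296, 268, 289.5, 289 and 276 in vehicle-treated mice, 340.4, 188, 209, 138 and 173 in semaglutide-treated mice and 276, 318 and 332 in the ketone ester group. Mouse 13 was the highest of all 13 mice and the other semaglutide-treated mice were the lowest 4. With mouse 13 the difference was -0.50 ± 0.19 (SE, limma adjusted p = 0.067), and without it -0.69 (limma adjusted p = 0.00079). Ndufaf2, a relative of Ndufa12 that acts late, when the N module joins, had 84.7, 136, 100.2, 97.6 and 100.1 in vehicle-treated mice, 103, 82.3, 61.1, 56.3 and 65.6 in semaglutide-treated mice and 142, 93.0 and 108 in the ketone ester group. Its spread was wide in the vehicle group as well, and the differences were -0.51 ± 0.18 (SE, limma adjusted p = 0.058) and 0.64 ± 0.21 (SE, limma adjusted p = 0.0503), while without mouse 13 they were -0.63 (limma adjusted p = 0.011) and 0.77 (limma adjusted p = 0.0090). Exons of a long noncoding RNA on the opposite strand cover 65.6% of the exon bases of Ndufaf2, and whether strand was used in counting is not given in the sources used here. Ndufaf7, a methyltransferase needed for complex I assembly, had 222, 229.9, 245, 303 and 267 in vehicle-treated mice, 257, 205, 184, 169.9 and 155 in semaglutide-treated mice and 226, 297 and 289.6 in the ketone ester group. Again mouse 13 was among the vehicle-treated mice, and the difference moved from -0.39 ± 0.14 (SE, limma adjusted p = 0.062) to -0.50 (limma adjusted p = 0.0087) without it. In the ketone ester group, Ndufaf6 differed from semaglutide by 0.62 (limma adjusted p = 0.063) and Ndufaf7 by 0.49 (limma adjusted p = 0.057). They were called in 5 and 7 of 25 alternative settings, among them the fit without mouse 13 (0.81, limma adjusted p = 0.00089, and 0.59, limma adjusted p = 0.0080).

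The other 3 assembly factors were not called in any comparison. Ndufaf4, which works with Ndufaf3 on the Q module, had 733, 737, 624, 672 and 683 in vehicle-treated mice, 908, 837, 669, 602 and 618 in semaglutide-treated mice and 526, 707 and 632 in the ketone ester group. Here mice 13 and 14 were the highest of all and the estimate was 0.06 ± 0.13 (SE, limma adjusted p = 0.77), which turned to -0.03 without mouse 13. Ndufaf3 had 207, 148, 158, 159.7 and 189 in vehicle-treated mice, 174, 218, 183, 146 and 170.1 in semaglutide-treated mice and 171, 180.0 and 219.9 in the ketone ester group, with every group overlapping and a difference of 0.05 ± 0.13 (SE, limma adjusted p = 0.82), which turned to -0.03 without semaglutide mouse 14. Ndufaf8, the partner of Ndufaf5, had 209, 196, 179, 189.6 and 161 in vehicle-treated mice, 216, 214, 209, 165 and 193 in semaglutide-treated mice and 219, 174 and 233 in the ketone ester group. Its difference was 0.09 ± 0.11 (SE, limma adjusted p = 0.58), and with columns rescaled to equal totals it was called higher (0.26, limma adjusted p = 0.049). Differences of the ketone ester group from semaglutide were -0.22 (limma adjusted p = 0.33) for Ndufaf4, 0.10 (limma adjusted p = 0.67) for Ndufaf3 and 0.06 (limma adjusted p = 0.77) for Ndufaf8. Rescaled to equal totals, Ndufaf4 was called lower in this comparison (-0.45, limma adjusted p = 0.020), and Ndufaf3 and Ndufaf8 turned to -0.14 and -0.18. The difference between the 5 and the 3 assembly factors was seen in these values and was not tested.

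**Figure D4:**
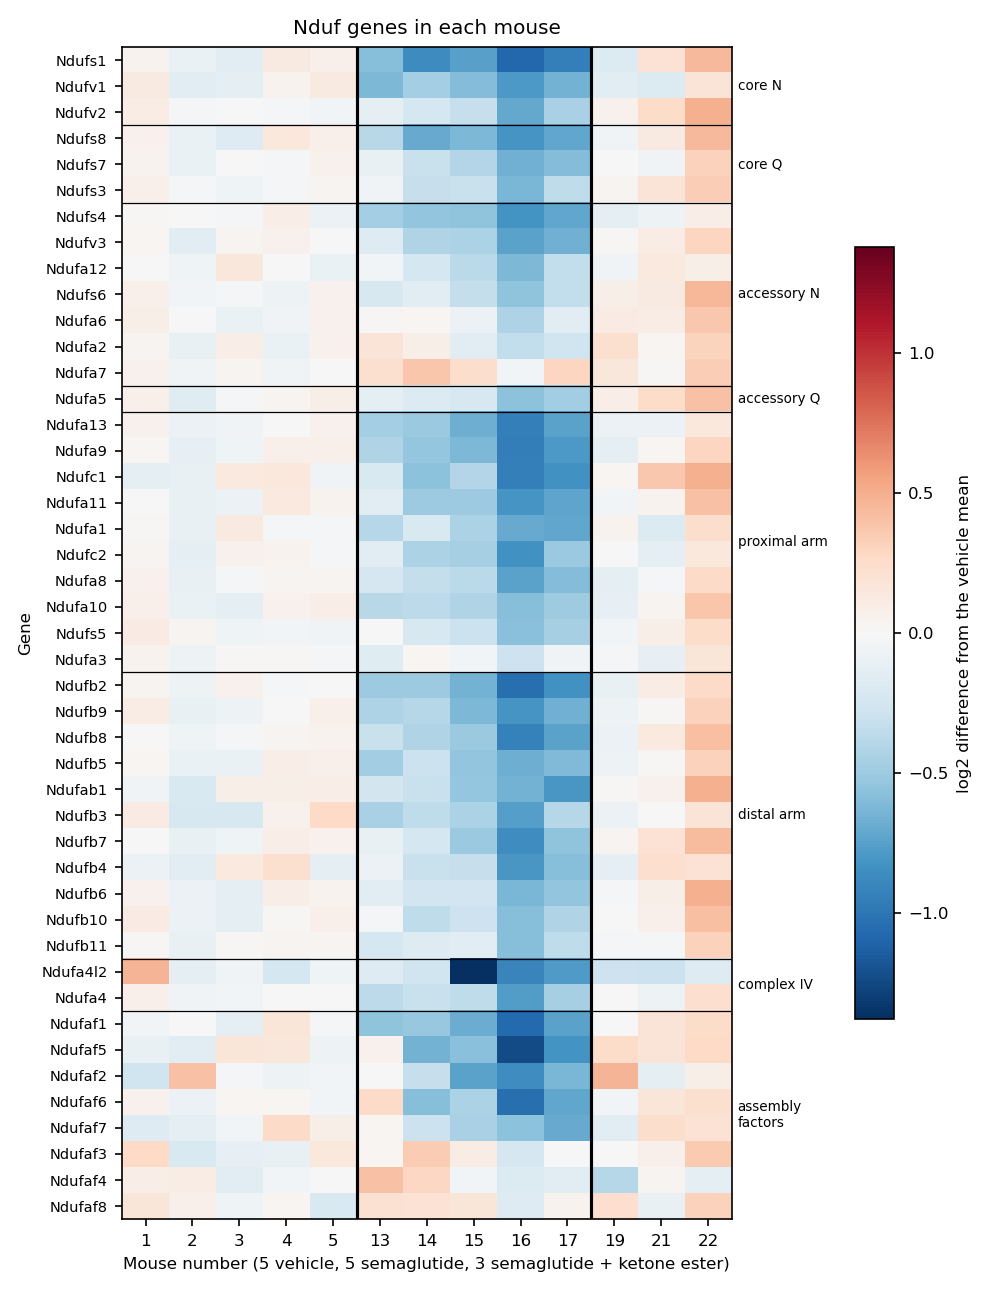
Log2 difference of 45 of the 46 Nduf genes (rows, grouped by place in the complex) from their vehicle means in each mouse (columns), blue below and red above the vehicle mean. By the deposited normalized counts, mouse 16 is the darkest blue in most subunits, mouse 22 the most red, and mouse 13 is near 0 or red in all assembly factors except Ndufaf1.

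Among 11 further assembly factors without an Nduf symbol, 2 were called lower under semaglutide, near the 13.2% of all genes tested. These were Tmem126b (-0.60, limma adjusted p = 0.0048), a partner of Ndufaf1 in the membrane arm, and Dmac2 (-0.40, limma adjusted p = 0.0068), a distal-arm factor. With the ketone ester 4 of the 11 were called higher, where 9.09% of all genes tested were. These were the same 2 together with Lyrm2 (0.65, limma adjusted p = 0.016) and Tmem186 (0.42, limma adjusted p = 0.026). The median was -0.23 under semaglutide and 0.31 with the ketone ester.

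Of the 7 mitochondrially encoded subunits, which the nuclear ones join in the finished enzyme, 6 were called lower under semaglutide. Of all genes tested, 13.2% were. The list median was -0.72. The largest called differences were those of mt-Nd4l (-0.98, limma adjusted p = 0.011) and mt-Nd6 (-0.91, limma adjusted p = 0.010), and mt-Nd3 was the exception (0.27, limma adjusted p = 0.78). Of the 7, 4 were called higher with the ketone ester, where 9.09% of all genes tested were. The called differences were led by mt-Nd4 (0.65, limma adjusted p = 0.0021) and mt-Nd5 (0.60, limma adjusted p = 0.0034). Libraries enriched for polyadenylated RNA hold these transcripts unevenly, so that their levels were not compared with those of nuclear genes.

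Of 10 transcription factors and coactivators known to act on complex I genes, 2 were called lower and 1 higher under semaglutide, near the 13.2% and 11.9% of all genes tested. Esrra (-0.78, limma adjusted p = 0.0071), the estrogen-related receptor alpha, and Tfam (-0.27, limma adjusted p = 0.032), the mitochondrial DNA transcription factor, were called lower under semaglutide and Nrf1 (0.65, limma adjusted p = 0.0070), nuclear respiratory factor, was called higher. With the ketone ester Esrra was called higher (0.72, limma adjusted p = 0.026), and Nrf1 (-0.70, limma adjusted p = 0.014) and Yy1 (-0.43, limma adjusted p = 0.013) were called lower. Ppargc1a, the coactivator of mitochondrial biogenesis, was called in neither comparison, with log2 differences of -0.34 (limma adjusted p = 0.50) and -0.90 (limma adjusted p = 0.13). Of 8 mitochondrial content markers outside the respiratory chain, 3 were called lower under semaglutide, Vdac1 (-0.68, limma adjusted p = 0.00023), Cs (-0.47, limma adjusted p = 0.0033) and Vdac3 (-0.27, limma adjusted p = 0.028), with a list median of -0.17.

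Markers of other cells and fibre types moved as well. Over all genes tested, 13.2% were called lower and 11.9% higher under semaglutide. With the ketone ester, 9.3% were called lower and 9.09% higher against semaglutide. Under semaglutide, 4 of 6 fibroblast and tendon markers were called lower, led by Tnmd (-3.43, limma adjusted p = 0.0020), and their sum ranged from 4619 to 6237 normalized counts against 5017 to 11467 in vehicle-treated mice and 6418 to 10664 in the ketone ester group. Erythroid markers were not called under semaglutide (0 of 5) but 4 of 5 were called higher with the ketone ester, and their sum ranged from 50.5 to 3148 under semaglutide, from 1356 to 2291 in vehicle-treated mice and from 2849 to 5558 in the ketone ester group. Of the fast glycolytic fibre markers, 3 of 8 were called lower under semaglutide, Pvalb (-1.36), Myh4 (-0.60) and Tnnc2 (-0.59), and Actn3 (0.74) was called higher. Of 8 slow or oxidative fibre markers 1, Myl3 (-1.32), was called lower. Estimates were below 0 for 5 of 8 fast and 8 of 8 slow markers, with list medians of -0.28 and -0.50. The mean over the slow list varied more among vehicle-treated mice (SD 0.80, n = 5) than that over the fast list (SD 0.09, n = 5). Adipocyte markers (0 of 5 called), macrophage markers (0 of 5) and endothelial markers (0 of 5) were not called under semaglutide, but the adipocyte sum ranged from 1747 to 16418 in that group, with mouse 16 the highest by its mean over the list. Of the 6 skeletal muscle markers, 3 were called lower under semaglutide, among them Mb (-2.15), the oxygen store myoglobin, and 1, Des (0.46), was called higher. By mouse, the mean log2 difference of the erythroid markers from the vehicle mean was 0.93 in mouse 13, -4.83 in mouse 14, -0.29 in mouse 15, -5.08 in mouse 16 and -3.09 in mouse 17. Vehicle-treated mice ranged from -0.44 to 0.30. Both mouse 13 and mouse 15 were thus apart from mice 14, 16 and 17 in these genes. With the ketone ester, the genes called against semaglutide were 5 higher and 1 lower of the fast fibre list, 4 and 1 of the skeletal muscle list, 3 and 1 of the fibroblast and tendon list and 2 and 0 of the endothelial list, and 0 of the slow fibre, adipocyte and macrophage lists. The part of these markers in the differences of the Nduf genes was not tested.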

How the data were processed

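Gene expression was measured by RNA-seq in gastrocnemius muscle of 13 mice in 3 groups taken from the labels (treatment). According to the study's methods and the submitters' processing notes, total RNA was isolated with TRIzol, stranded mRNA libraries were sequenced paired-end and reads were aligned with DRAGEN to mm10. The notes also name DESeq2 without a role, and the counting tool, its annotation and the normalization are not given in the sources used here. The table deposited by the authors holds normalized counts, a signal proportional to reads: each column divided by its smallest step gave whole numbers for 100% of values (tolerance 0.01), which gives the reads per mouse used for depth, edgeR and DESeq2. The sample titles number the mice separately under 1 shared prefix, and no batch was entered in the fits. No pair of libraries within a group agreed within sampling noise (lowest chi-square per degree of freedom between replicates 9.27).

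Values were converted to log2(normalized count + 1), and genes with a mean of at least 10 were kept (12303 of 21868). All 3 groups were fitted together in limma 3.58.1 (R 4.3.3), with two-sided moderated tests and Benjamini-Hochberg adjustment over all genes tested in each comparison, and a threshold of 0.05. A fold change on this scale understates changes of low genes. The 25 alternatives comprised other pseudocounts, filters, scalings and variance models, fits on the 2 groups compared, edgeR 4.0.16 (quasi-likelihood test) and DESeq2 1.42.0 on the recovered reads, and the omission of each mouse in turn. The fit was tested before use on simulated data with the same dispersion in every group. The groups of mice here differed in spread, so that test does not give the error rate in these data.

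Members were matched to the mm10 annotation by symbol, and 0 of the 5 other annotated Nduf symbols, of which 4 are pseudogenes, were in the table. Ndufb1 and Coa1 were not among its symbols. Whether strand was used in counting is not given in the sources used here, and 17 members share exon bases with a gene on the opposite strand. Counts per mouse are given for the core subunits, the 3 subunits with the largest and the 3 with the smallest difference between semaglutide and vehicle, subunits whose sign differs from that of the median subunit, all Ndufaf genes, Ndufa4 and Ndufa4l2. Genes of other lists were named where called, at most 4 a list by size of difference, and mt-Nd3, Ppargc1a and the members named without counts per mouse were named after their values were seen. The members and lists were chosen with earlier results of these data known. The values of 1 member are not reported here, although it is counted in the lists.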

Additional observations from a re-analysis of the deposited data

Results flagged for a closer look

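Within 46 groups of 5 mice (21 genes given per mouse and the list means), the most extreme mouse was compared with the others by the size of its gap relative to the range of the group, and 2 groups held a mouse apart from the other 4. Chance flags about 1 in 20 groups. Vehicle mouse 1 had 5538 normalized counts of Ndufv2, where the other vehicle-treated mice had 5036 to 5139. The same mouse had 138.5 normalized counts of Ndufa4l2, where the others had 84.3 to 96.5. The call of this gene as lower under semaglutide was lost without this mouse and in 6 of the other alternatives, 17 of 24 keeping it.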

How the results depend on the processing

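The medians of subunits and of assembly factors kept their direction under all 25 alternatives in all 3 comparisons, and 25 of 1569 combinations of a gene given per mouse and an alternative changed sign. With the scaling to equal totals, these values changed. Between semaglutide and vehicle it gave 19 subunits lower and 1 higher (median -0.28), beside 929 of all genes lower and 3262 higher. Ndufaf1 and Ndufaf5 kept their calls as lower, and 1 assembly factor was called higher. Between the ketone ester group and semaglutide it gave 21 subunits higher and 1 lower (median 0.31). Ndufaf1 and Ndufaf5 kept their calls as higher in that comparison, and 1 assembly factor was called lower (median of the assembly factors 0.32). Of all genes, 611 were called higher and 3587 lower there. Between the ketone ester group and vehicle the assembly factor median became 0.076. Under this scaling the log2 difference turned to 0.074 for Ndufa2, 0.073 for Ndufa3 and 0.053 for Ndufa6 (semaglutide against vehicle), to -0.13 for Ndufa3, -0.14 for Ndufaf3 and -0.18 for Ndufaf8 (ketone ester group against semaglutide), and to -0.055 for Ndufa3 and -0.0105 for Ndufa4 (ketone ester group against vehicle). The cause was not tested.

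Subunits called higher under semaglutide numbered 1 with sample weights, edgeR and DESeq2, beside 2383, 1769 and 1848 of all genes in that order. Assembly factors called lower under semaglutide numbered 4 with a mean of at least 100, 4 with a mean-variance trend, 5 with sample weights and 3 with DESeq2. Of all genes, 1430 of 8727, 1715, 2464 and 1729 were called lower in that order, and 1625 in the main fit. With the ketone ester, 4 assembly factors were called higher against semaglutide with a mean of at least 100 and with edgeR, and 5 with a mean-variance trend, sample weights and DESeq2. The genes called higher over all tested numbered 1105 of 8727, 1202, 1234, 2060 and 1355 in that order. A fit on only the 2 groups compared, which has fewer samples, gave 13 subunits and 1 assembly factor higher in that comparison. It called 391 of all genes higher, against 1118 in the main fit. Sample weights turned Ndufaf4 to -0.021 (semaglutide against vehicle) and Ndufa3 to -0.0016 (ketone ester group against vehicle), and quantile normalization turned Ndufa7 to 0.0068 (ketone ester group against semaglutide).

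When single mice were omitted in turn, the fits gave 21 to 34 subunits lower and 0 to 1 higher under semaglutide, 1 to 5 assembly factors lower, and, with the ketone ester against semaglutide, 14 to 35 subunits and 1 to 5 assembly factors higher. The lowest counts came without semaglutide mouse 17 (subunits lower) and without mouse 22 (subunits higher), and the highest without semaglutide mouse 13. Assembly factors called lower numbered 1 without vehicle mouse 3, vehicle mouse 4 or mouse 17, and those called higher 1 without mouse 21 or 22. The assembly factor median between the ketone ester group and vehicle ranged from 0.063 to 0.20. Genes with a change of sign ranged, for semaglutide against vehicle, from -0.028 to 0.12 (Ndufaf3) and from -0.027 to 0.12 (Ndufaf4). For the ketone ester group against semaglutide they ranged from -0.14 to 0.024 (Ndufa7), from -0.0088 to 0.17 (Ndufaf3) and from -0.025 to 0.19 (Ndufaf8). For the ketone ester group against vehicle they ranged from -0.17 to 0.0155 (Ndufv1), -0.0297 to 0.15 (Ndufs7), -0.0010 to 0.18 (Ndufb2), -0.069 to 0.0697 (Ndufa3), -0.0303 to 0.27 (Ndufaf2) and -0.036 to 0.11 (Ndufa4). No paired analysis was possible because mouse numbers are not shared between groups. The ketone ester group held 3 mice and no group received the ketone ester alone.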
